A study of Rattus norvegicus with 36 samples.

Results

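Gene expression in the extraocular muscles (EOM) of the rat, which move the eye, was set against that of a leg sample of gastrocnemius and soleus at postnatal day 7. All 6 arrays that the labels give to this age were used, 3 for each muscle, out of 36 arrays in the series, which covers 6 ages from day 0 to day 45. Total RNA was hybridised to Affymetrix RG-U34A arrays, on which a gene is read by 1 or more probe sets. No treatment or altered gene is named for either muscle. The labels give no strain or sex, and do not say whether animals were pooled or whether each array had an animal of its own. The p-values therefore measure only how far arrays of one group spread, which may be technical. That spread was estimated over all 36 arrays of the series. The leg sample joins a mostly fast and a mostly slow muscle, and no sorting of cells is named for either sample. The arrays of days 0 and 14 were used to ask whether a difference seen at day 7 was another one before or after it.

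Skeletal muscle fibres are built with embryonic and neonatal forms of myosin heavy chain, which are replaced after birth by the slow form (Myh7) and the fast forms (Myh2, Myh1 and Myh4, for type IIA, IIX and IIB fibres). Fast fibres also fill with parvalbumin, a protein that binds calcium, and with enzymes of glycogen breakdown and glycolysis. Extraocular muscles arise from head mesoderm and not from the somites that give limb muscle. In the adult they hold unusual fibre types, some with the extraocular myosin Myh13, some that keep developmental myosins and some that are innervated at many points, and they lie in the orbit beside the lacrimal and Harderian glands, nerves and connective tissue. Rat pups still have closed eyes at day 7.

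Intensities of the 6 arrays had medians of 487 to 578, and between 19% and 22% of each array's probe sets read 100 or less, the floor applied before taking log2. Arrays of the same muscle correlated at r = 0.937 to 0.953 across probe sets, and arrays of different muscles at 0.901 to 0.918, except that EOM array 3 and leg array 3 correlated at 0.942, as closely as arrays of one muscle. EOM array 3 was the lowest EOM array for 82 of the 136 genes called higher in EOM, and the highest for 35 of the 70 called lower. Over all tested genes it was the lowest for 45.8% and the highest for 28.5%. The cause of this was not tested, and results are given with and without the arrays numbered 3. The 3′ to 5′ signal ratio, a measure of RNA integrity, was 3.51 to 4.26 in EOM and 2.14 to 2.55 in leg for hexokinase and 0.927 to 1.35 against 0.647 to 0.702 for GAPDH, while for beta-actin the ranges, 0.801 to 0.812 and 0.764 to 0.958, overlapped. The ratios of hexokinase and GAPDH thus moved with the muscle and that of beta-actin did not. Their part in the differences was not tested. Of the muscle markers on the array, Myog, Des and Tnnc2 read between 4179 and 21186 on every array. The probe set of Acta1, the actin of skeletal muscle, read 3202, 1844 and 3919 on the EOM arrays and 696, 625 and 700 on the leg arrays and was not called (adjusted p = 0.352). The Ckm probe set read 9798, 67.3 and 5042 on the EOM arrays and 0.1, 0.2 and 699.9 on the leg arrays, too erratic to be used as a marker. Of the genes chosen to mark origin, Pitx1, Tbx4 and Tbx5 had no named probe set here, Hoxc8 was too dim to be tested, and Myh13 was higher in EOM, as described below.

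At day 7, 330 of 6672 tested probe sets (4.95%) differed between the muscles, 221 higher in EOM (3.31%) and 109 lower (1.63%), by limma's moderated test with a Benjamini-Hochberg adjusted p under 0.05. A gene or probe set past this threshold is called higher or lower below. Of the 330, 248 differed by 2-fold or more and 86 by 4-fold or more. In terms of genes, each read by its brightest probe set, 206 of 3889 passed (5.3%), 136 higher (3.5%) and 70 lower (1.8%). The number of probe sets was 234 without both arrays numbered 3, 133 without both numbered 1 and 125 without both numbered 2. With a single array left out it was 191 without leg array 1, 216 without leg array 2, 204 without EOM array 1, 191 without EOM array 2, and 258 and 294 without leg array 3 and EOM array 3. For the 234 found without the arrays numbered 3, those 2 arrays differed in the same direction at 228, but with a median size of 1.09 on the log2 scale against 1.91 in the other 4. All but 1 of the 330 had 3 arrays of one muscle above all 3 of the other. The calls rest on the same arrays, so this adds no support to them. Among all genes 13.1% had all EOM arrays above all leg arrays, and 9.15% the reverse. The 30 genes with the largest differences, chosen among called genes without overlap, include Mybpc2, Myh4, Pvalb and Myl3 of muscle fibres among the lower ones. Among the higher ones are Ctse, Cldn3, Krt19 and Epcam of epithelia, and Sox10 and S100b of the list for Schwann cells and myelin. In RNA of whole muscle, fewer cells of a type and less RNA per cell cannot be told apart.

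**Figure D1:**
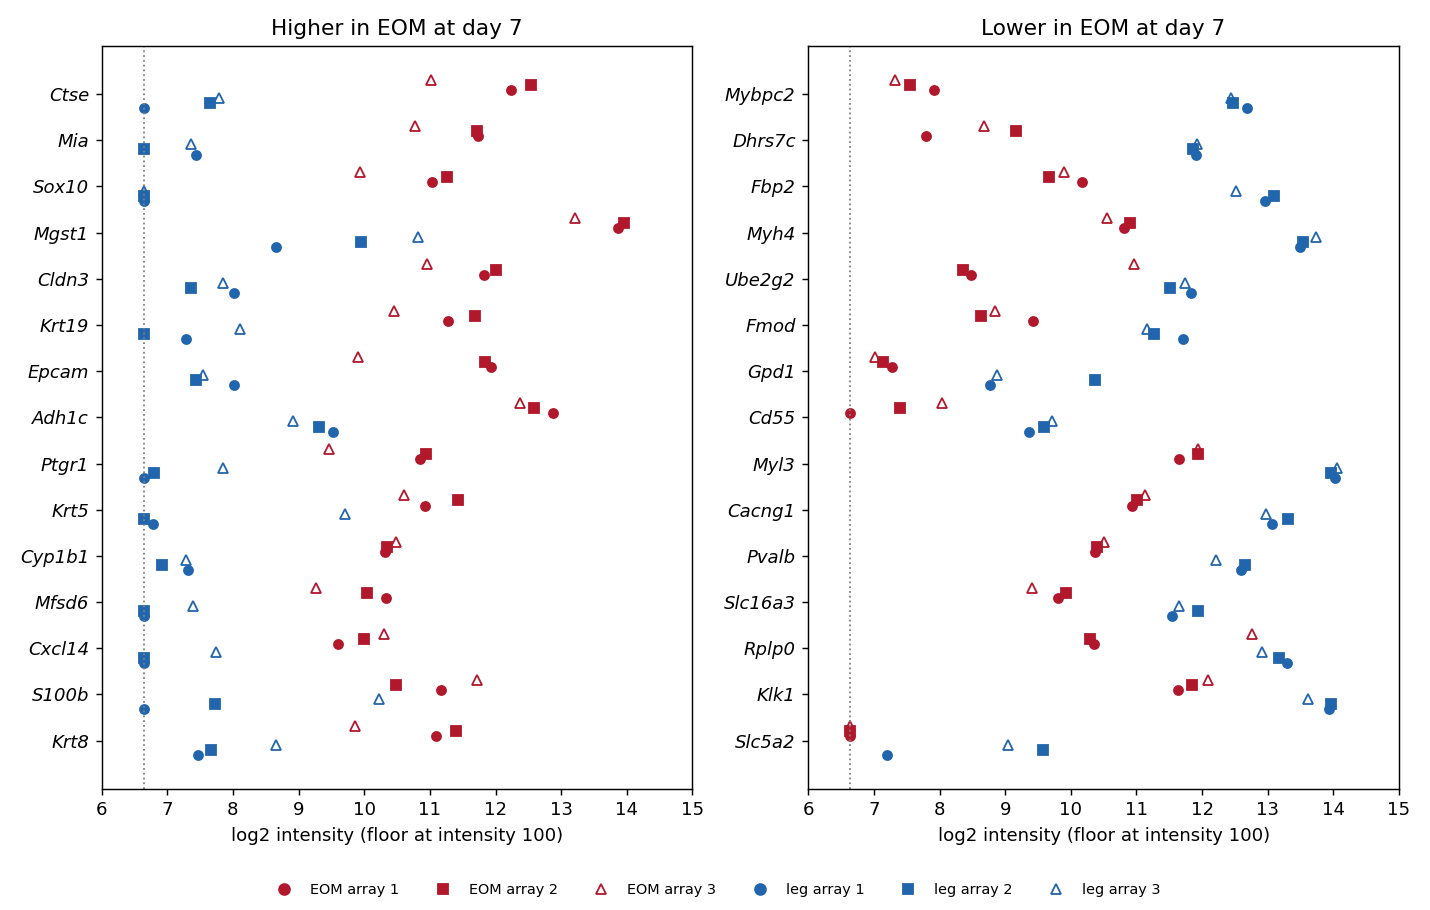
Log2 intensity of each day 7 array for the 15 genes with the largest difference in each direction, with EOM in red, leg in blue and the floor as a dotted line. The 30 genes were chosen among called genes whose arrays do not overlap between the muscles, so the lack of overlap is no result. EOM array 3 (open red triangle) lies near the leg arrays for Ube2g2 and Rplp0, and leg array 3 (open blue triangle) near the EOM arrays for Krt5 and S100b.

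Mybpc2, Myh4 and Pvalb, all genes of mature fast fibres, were lower in EOM than in leg at day 7, by 30.7-fold, 7.15-fold and 4.18-fold. They were 3 of the 13 tested genes of the fast fibre list, beside 1.8% called lower over all genes, and none was higher. The list's median difference (EOM minus leg, log2) was -0.45 against 0.05 over all genes. All 3 leg arrays lay above all 3 EOM arrays for 8 of the 13, against 9.15% of all genes. Mybpc2, the fast form of myosin-binding protein C in the thick filament, read 242, 187 and 159 on the EOM arrays and 6601, 5662 and 5555 on the leg arrays. All 3 EOM values were near the dim end of the scale and all 3 leg values far above them. The difference was -4.94 ± 0.33 (adjusted p = 1.94e-11), where ± gives the standard error. Values given for a gene with no unit are such differences, EOM minus leg on the log2 scale, here and below. Myh4, the type IIB myosin heavy chain, read 1789, 1916 and 1504 on the EOM arrays and 11558, 11940 and 13648 on the leg arrays. Its difference was -2.84 ± 0.37 (adjusted p = 5.13e-06). Pvalb, parvalbumin, read 1323, 1349.8 and 1457 on the EOM arrays and 6199.7, 6465 and 4740.2 on the leg arrays, with a difference of -2.06 ± 0.33 (adjusted p = 0.000103). Both muscles had all 3 genes well above the floor, except that Mybpc2 in EOM was little above it. Each of the calls held when any one array was left out. The other members of the list gave no call. Myh2, the type IIA form, read 5661, 3337 and 5879 on the EOM arrays and 7173, 5344 and 5282 on the leg arrays, with -0.29 ± 0.27 (adjusted p = 0.786). Myh1, the type IIX form, read 1554, 1455 and 1228 on the EOM arrays and 1088, 1332 and 1089 on the leg arrays, with 0.27 ± 0.34 (adjusted p = 0.846). The muscles overlapped for both. Myl1, Tnni2 and Tnnt3, a fast light chain and fast troponins, gave -0.45, -0.57 and -0.13. Tnnc2, the fast troponin C, was the 1 member with all EOM arrays above all leg arrays. It read 21186, 16429 and 16444 on the EOM arrays and 11716, 10850 and 5627 on the leg arrays and was not called (adjusted p = 0.59). Myosin heavy chains are alike in sequence, so a probe set can also read relatives of the gene it is named for.

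The 250 bases before the start of these 3 genes are shown because the genes share the direction at day 7 and, as described below, their mean in EOM was higher at day 14 than at day 7. The sequences are those of RefSeq on GRCr8, each read in the direction of the gene, and capitals mark CANNTG, the E-box letters that myogenic regulators such as MyoD can bind. Mybpc2 lies at chr1:104154102-104154351 on the minus strand, Myh4 at chr10:52421898-52422147 on the plus strand and Pvalb at chr7:111666290-111666539 on the minus strand.
Mybpc2: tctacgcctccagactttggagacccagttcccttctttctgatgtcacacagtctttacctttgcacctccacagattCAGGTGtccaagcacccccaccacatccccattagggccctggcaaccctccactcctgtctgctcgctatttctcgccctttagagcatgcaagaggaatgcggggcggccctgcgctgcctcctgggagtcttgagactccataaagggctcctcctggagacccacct
Myh4: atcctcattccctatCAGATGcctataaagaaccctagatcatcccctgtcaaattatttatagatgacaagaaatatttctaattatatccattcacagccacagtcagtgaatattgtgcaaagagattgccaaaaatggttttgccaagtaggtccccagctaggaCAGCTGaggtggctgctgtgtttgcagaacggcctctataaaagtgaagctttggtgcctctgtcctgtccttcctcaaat
Pvalb: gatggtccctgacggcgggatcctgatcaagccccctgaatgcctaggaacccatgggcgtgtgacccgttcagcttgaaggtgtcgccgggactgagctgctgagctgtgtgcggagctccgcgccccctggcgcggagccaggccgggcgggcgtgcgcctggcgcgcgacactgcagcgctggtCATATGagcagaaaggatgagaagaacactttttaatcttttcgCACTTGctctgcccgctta
The Mybpc2 stretch holds 1 CANNTG, and the Myh4 and Pvalb stretches 2 each. In Myh4 one of these is CAGCTG, and the stretch also holds TATAAA at 3 places on either strand and 1 match to the MEF2 consensus, the letters of another muscle transcription factor. CANNTG was present before 45 of the 57 genes lower in EOM that had a sequence (78.9%), 72 of the 110 higher (65.5%), 57.6% of 3180 tested genes and 65.2% of all 27457 sequences of that length. CAGCTG, searched on both strands and always also a CANNTG, was in 24.6%, 16.4%, 13.4% and 11.9% of the same sets. The MEF2 consensus was in 5 of the 57, 1 of the 110, 1.45% of tested genes and 3.07% of all. A match of letters does not show that a factor binds there.

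Myh13, the extraocular myosin heavy chain, was already higher in EOM at day 7. It read 3052, 2919.5 and 1612 on the EOM arrays and 358, 499.5 and 544 on the leg arrays, so that the lowest EOM array was about 3 times the highest leg array. The difference was 2.40 ± 0.60 (adjusted p = 0.0133), or 5.29-fold. The call ended without EOM array 1 or 2, or leg array 1 (adjusted p 0.0679 to 0.0763, with 0.000287 to 0.232 over all alternatives). The developmental myosins were not called at this age. Myh3, the embryonic form, read 18453, 10832 and 15690 on the EOM arrays and 16708, 17944 and 19728 on the leg arrays, with -0.31 ± 0.39 (adjusted p = 0.851), and its arrays overlapped. Myh8, the neonatal form, read 14925, 20945 and 13619 on the EOM arrays and 27284, 24449 and 27503 on the leg arrays. Its leg arrays were all above its EOM arrays, but the difference of -0.70 ± 0.29 (adjusted p = 0.222) did not pass. Of the 12 tested genes of developmental isoforms only Tnnt2, the cardiac and embryonic troponin T, was called, beside 5.3% over all genes. It read 1507, 1725 and 2958 on the EOM arrays and 5662, 5556 and 6010.3 on the leg arrays, with -1.54 ± 0.44 (adjusted p = 0.0367). That call ended without EOM array 1 or 2, or leg array 1, 2 or 3 (adjusted p 0.0961 to 0.198, with 0.00204 to 0.359 over all alternatives). The other 11 members were not called, and the list's median was -0.19.

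Of 11 tested slow fibre genes 5 were lower in EOM, 1 was higher and 5 were not called, and the median was -0.71. The shares called over all genes were 1.8% lower and 3.5% higher. Of the 5 lower calls Myl3 alone held with any one array left out. Myl3, the slow ventricular light chain, read 3202, 3929.6 and 3907 on the EOM arrays and 16640, 16051 and 17066 on the leg arrays. All leg arrays were more than 4 times the EOM arrays, and the difference was -2.18 ± 0.29 (adjusted p = 5.8e-06). Car3, a carbonic anhydrase of slow fibres, read 3496, 2834 and 3274 on the EOM arrays and 7477, 8420.5 and 11533 on the leg arrays, with -1.49 ± 0.35 (adjusted p = 0.00817), a call that ended without EOM array 2, or leg array 3 (adjusted p 0.0502 to 0.0575, with 0.00141 to 0.108 over all alternatives). Casq2, the slow and cardiac calsequestrin, gave -1.01 ± 0.23 (adjusted p = 0.00661), lost without EOM array 1 (adjusted p = 0.0617, with 0.000205 to 0.135 over all alternatives). Myh7, the slow myosin, read 10886, 9462 and 10160 on the EOM arrays and 18198, 15106 and 16743 on the leg arrays and was just past the threshold with -0.71 ± 0.21 (adjusted p = 0.0487), lost without EOM array 1, 2 or 3, or leg array 1, 2 or 3 (adjusted p 0.0785 to 0.198, with 0.0102 to 0.298 over all alternatives). That probe set is marked by the array's design as shared by a gene family. A second Myh7 probe set gave -1.37 (adjusted p = 0.00214). The probe set named for Myh6, the alpha cardiac myosin, is likewise marked as shared by a family, and gave -1.43 ± 0.32 (adjusted p = 0.00532), lost without EOM array 2, or leg array 3 (adjusted p 0.061 to 0.0699, with 0.000927 to 0.0852 over all alternatives). The 2 other Myh6 probe sets were not called, at -0.96 (adjusted p = 0.44) and -0.31 (adjusted p = 0.921). With both arrays numbered 3 left out, 2 members were called lower and 1 higher. The exception in direction was Pln, phospholamban, which restrains the calcium pump of slow and cardiac muscle. It read 527, 507 and 399 on the EOM arrays and 79.4, 18.6 and 56 on the leg arrays. All 3 leg arrays lay at the floor, so the difference of 2.25 ± 0.36 (adjusted p = 0.000104) is a lower bound, at least 4.74-fold.

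Among the lists of energy metabolism, that of glycolysis and glycogen had the most calls. The list of oxidative phosphorylation and the citrate cycle leaned the same way, as given below. Of 16 tested genes of glycolysis and glycogen 6 were lower in EOM, beside 1.8% over all genes. None was higher and the median was -0.37. Fbp2, the muscle form of fructose bisphosphatase, read 1156, 811 and 951 on the EOM arrays and 7992, 8727 and 5835 on the leg arrays. No EOM array came near the leg range, and the difference was -2.94 ± 0.35 (adjusted p = 1.12e-06). Pgam2, the muscle phosphoglycerate mutase, read 4095, 4497 and 4689 on the EOM arrays and 9186, 7683 and 8637 on the leg arrays, with -0.94 ± 0.16 (adjusted p = 0.00028). Pygm, the muscle glycogen phosphorylase, gave -0.88 ± 0.20 (adjusted p = 0.00532), lost without EOM array 3 (adjusted p = 0.0604, with 0.000912 to 0.078 over all alternatives), and its second probe set gave -0.27 without a call. Eno3, the muscle enolase, gave -0.86 ± 0.20 (adjusted p = 0.00603), lost without EOM array 1 or 2 (adjusted p 0.051 to 0.0671, with 0.000184 to 0.116 over all alternatives). Gpd1, which links glycolysis to glycerol, read 155, 141 and 129 on the EOM arrays and 436, 1324 and 472 on the leg arrays, with leg array 2 far above the other leg arrays. Its difference of -2.20 ± 0.65 (adjusted p = 0.0449) was lost without EOM array 1, 2 or 3, or leg array 1, 2 or 3 (adjusted p 0.061 to 0.293, with 0.00377 to 0.498 over all alternatives). Phkg1, the catalytic subunit of phosphorylase kinase, gave -0.69 ± 0.20 (adjusted p = 0.0367), lost without EOM array 1, 2 or 3, or leg array 1 or 2 (adjusted p 0.0771 to 0.226, with 0.00407 to 0.347 over all alternatives). In the 4 arrays numbered 1 and 2, 3 genes of the list passed, all lower. Slc16a3, a lactate exporter of fast fibres that is on no list, read 894, 978 and 680.3 on the EOM arrays and 2994, 3909 and 3219 on the leg arrays, with -1.99 ± 0.29 (adjusted p = 1.91e-05).

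The enzymes that make creatine were lower in EOM as well. Gatm, which catalyses the first step, read 3094, 3793 and 2835 on the EOM arrays and 8317, 8611 and 7693 on the leg arrays, with -1.35 ± 0.35 (adjusted p = 0.0168), lost without EOM array 1 or 3, or leg array 1 or 2 (adjusted p 0.0637 to 0.0648, with 0.00126 to 0.166 over all alternatives). Gamt, which catalyses the second, read 4019, 3057 and 2798 on the EOM arrays and 8092, 8477 and 7443 on the leg arrays, with -1.30 ± 0.30 (adjusted p = 0.00746), and its second probe set gave -0.82 without a call (adjusted p = 0.109). They were 2 of 7 tested genes of this list, beside 1.8% called lower over all genes, and its median was 0.15. Neither was called without both arrays numbered 3. All leg arrays lay above all EOM arrays for 13 of 41 tested genes of oxidative phosphorylation and the citrate cycle, against 9.15% of all genes, and the reverse held for 0. The list had 1 call, near the 1.8% called lower over all genes. It was Vdac1, a channel of the outer membrane, with -1.14 ± 0.33 (adjusted p = 0.0358), lost without EOM array 1, 2 or 3, or leg array 1, 2 or 3 (adjusted p 0.056 to 0.173, with 0.00207 to 0.22 over all alternatives). A second Vdac1 probe set gave -1.25 without a call (adjusted p = 0.117). The median of the oxidative phosphorylation and citrate cycle list was -0.27. None of 22 tested genes of fatty acid use was called by limma, 4 of them had an unadjusted p under 0.05, and the median was -0.19. The largest differences among them were -0.63 ± 0.36 (adjusted p = 0.501) for Cd36, a fatty acid transporter, and 0.66 ± 0.32 (adjusted p = 0.364) for Cpt1a, which brings fatty acids into mitochondria. A second, dimmer Cd36 probe set did pass, at -1.65 (adjusted p = 0.0147).

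Calcium handling showed 4 lower genes and 1 higher among 30 tested, with a median of -0.26. Over all genes 1.8% were lower and 3.5% higher. Dhrs7c, a dehydrogenase of the sarcoplasmic reticulum, read 222, 572 and 408 on the EOM arrays and 3825, 3724 and 3899 on the leg arrays. The 3 leg arrays lay close together and at least 6 times above the highest EOM array, and the difference was -3.36 ± 0.40 (adjusted p = 1.22e-06). Cacng1, the gamma subunit of the muscle calcium channel, read 1959, 2051 and 2241 on the EOM arrays and 8581, 10179 and 8089.5 on the leg arrays, with -2.10 ± 0.29 (adjusted p = 1.4e-05). Casq2, Pvalb and Pln, given above, were the other 3. Atp2a1, Atp2a2 and Casq1, the calcium pumps and the fast calsequestrin, gave -0.39, -0.19 and -0.47 without a call. Among 15 genes of the sodium pump and muscle ion channels 2 were higher. Atp1b1, a beta subunit of the sodium pump, read 13936, 14133 and 18734 on the EOM arrays and 4508, 4517 and 5331 on the leg arrays, with 1.70 ± 0.30 (adjusted p = 0.000397). Stk39, a kinase that regulates chloride transport, was the 1 called probe set whose arrays overlapped. It read 2324, 3794 and 4186 on the EOM arrays and 2447, 714 and 597 on the leg arrays, with leg array 1 as high as an EOM array, and its 1.72 ± 0.52 (adjusted p = 0.0487) was lost without EOM array 1, 2 or 3, or leg array 2 or 3 (adjusted p 0.0588 to 0.268, with 0.00733 to 0.497 over all alternatives). Of its other probe sets one gave 0.04 (adjusted p = 0.974) and one 2.12 (adjusted p = 0.0265).

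At the neuromuscular junction 1 of 14 tested genes differed, near the 5.3% called over all genes. The same share stands beside the calls among myogenic regulators below. Chrnd, the delta subunit of the acetylcholine receptor, read 1855, 1834 and 1888 on the EOM arrays and 3784, 3496 and 3498 on the leg arrays. The 2 sets of arrays were tight and well apart, with -0.95 ± 0.18 (adjusted p = 0.00088), and the call held with any one array left out. The subunit that marks immature receptors, Chrng, read 2853, 2134 and 2080.3 on the EOM arrays and 2783, 2481 and 2647 on the leg arrays, and the one that replaces it, Chrne, read 1226, 1051 and 1243 on the EOM arrays and 1155, 1368 and 1119.5 on the leg arrays. Both overlapped between the muscles, with -0.18 ± 0.17 (adjusted p = 0.801) and -0.05 ± 0.24 (adjusted p = 0.974). Chrna1, the alpha subunit, gave -0.15 ± 0.18 (adjusted p = 0.833). Among 16 myogenic regulators Id2, which blocks MyoD partners, was higher with 1.01 ± 0.28 (adjusted p = 0.0295), lost without EOM array 1 or 2, or leg array 1, 2 or 3 (adjusted p 0.0652 to 0.154, with 0.00325 to 0.259 over all alternatives). Mstn, myostatin, was lower with -1.06 ± 0.29 (adjusted p = 0.0249), lost without EOM array 2 or 3, or leg array 1 or 2 (adjusted p 0.0782 to 0.163, with 0.00248 to 0.354 over all alternatives). Myod1 read 1357, 1819 and 1365 on the EOM arrays and 2665, 3016 and 2001 on the leg arrays. Its leg arrays were all above its EOM arrays, and its -0.75 ± 0.26 (adjusted p = 0.108) missed the threshold but passed with arrays scaled to the same median (adjusted p = 0.0439), with quantile normalization (0.0281) and with array weights (0.0121), within 0.0121 to 0.605 over all alternatives. Myog gave -0.70 ± 0.31 (adjusted p = 0.29) and Myf6 -0.19 ± 0.18 (adjusted p = 0.793).

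Of 13 tested genes that pattern the head and limb 3 were called, all higher in EOM, beside 3.5% called higher over all genes. All leg arrays lay above all EOM arrays for 5 of the 13, and all EOM arrays above for 3, against 9.15% and 13.1% of all genes. Cyp1b1, an enzyme that takes part in retinoic acid synthesis in the embryo, read 1278, 1298 and 1428 on the EOM arrays and 159, 122 and 156 on the leg arrays. The muscles were far apart, with 3.20 ± 0.38 (adjusted p = 1.22e-06). Of its 4 tested probe sets 1 gave no call. Pax6, a transcription factor of the eye, read 536, 509 and 189 on the EOM arrays and 11.6, 3.1 and 2 on the leg arrays, and Alx1, a transcription factor of the periocular and facial mesenchyme, read 137, 503 and 533 on the EOM arrays and 23, 36.1 and 37.6 on the leg arrays. All leg arrays of both lay at the floor, so the differences of 1.90 ± 0.31 (adjusted p = 0.000155) and 1.73 ± 0.37 (adjusted p = 0.00332) are lower bounds. Pax6 was not called with only the arrays compared, without the block (adjusted p = 0.0725) or with it (0.09), with 9.25e-07 to 0.09 over all alternatives. Alx1 was not called without both arrays numbered 3 (adjusted p = 0.0898, with 2.53e-05 to 0.162 over all alternatives). The list's median was 0.11.

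Among genes of connective tissue, Fmod and Thbs4 of the tendon list were lower in EOM. How much tendon each sample held was not tested. The counts of this paragraph stand beside 5.3% called over all genes. Fmod, fibromodulin, read 688, 396 and 459 on the EOM arrays and 3345, 2454 and 2293 on the leg arrays, with -2.41 ± 0.33 (adjusted p = 8.17e-06), and its second probe set gave -1.15 without a call. Thbs4, thrombospondin 4 of tendon, read 2456, 2894 and 3110.3 on the EOM arrays and 7675, 6841 and 6895 on the leg arrays, with -1.34 ± 0.27 (adjusted p = 0.00145). They were 2 of 6 tested tendon genes, none was higher, and the median was -0.83. Of 36 genes of the extracellular matrix 1 was called, Fbln5, which helps assemble elastic fibres, higher with 0.96 ± 0.21 (adjusted p = 0.00359). Fibrillar collagens were not called, with -0.22 for Col1a1 and -0.36 for Col3a1. Capn3, a calpain of the sarcomere, was the 1 gene of 11 of the dystrophin complex and sarcolemma list that was called, lower with -1.67 ± 0.26 (adjusted p = 7.83e-05), and all 3 of its probe sets were called lower. The call of its brightest probe set was lost with only the arrays compared (adjusted p = 0.0609, with 1.65e-06 to 0.0609 over all alternatives). Ghr, the growth hormone receptor, was lower with -1.08 ± 0.24 (adjusted p = 0.00375), lost without EOM array 1 (adjusted p = 0.051, with 0.000218 to 0.0644 over all alternatives), and it was the 1 called gene of 16 around insulin-like growth factors. The other Ghr probe sets gave -1.32 (adjusted p = 0.0622) and -0.82 (adjusted p = 0.492) without a call.

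Of the gene lists, that of glands and epithelia had the most genes called higher in EOM. Of 23 genes on the array that mark the lacrimal and Harderian glands and epithelia 19 were bright enough to be tested. Of these 9 were higher and 1 was lower, beside 3.5% and 1.8% over all genes, and the median difference was 1.39. Arrays of EOM lay wholly above those of leg for 11 of the 19, against 13.1% of all genes. Ctse, cathepsin E, read 4808, 5982 and 2065 on the EOM arrays and 55.3, 201 and 219.8 on the leg arrays, with 4.57 ± 0.88 (adjusted p = 0.00105), at least 23.8-fold since 1 leg array lay at the floor. Krt19, a keratin of simple epithelia, read 2493, 3308 and 1398 on the EOM arrays and 155, 42.2 and 276 on the leg arrays, and Epcam, an epithelial adhesion molecule, read 3894, 3654 and 962 on the EOM arrays and 258, 174 and 187 on the leg arrays. Their differences were 3.80 ± 0.48 (adjusted p = 3.19e-06) and 3.56 ± 0.49 (adjusted p = 1.11e-05). Cldn3, a claudin of tight junctions, read 3623, 4117 and 1984 on the EOM arrays and 260, 164 and 230.4 on the leg arrays, with 3.85 ± 0.56 (adjusted p = 2.54e-05). In each of these EOM array 3 was the lowest EOM array and still at least 3 times the highest leg array. Krt8 gave 2.86 ± 0.38 (adjusted p = 6.81e-06), lost with the replicate block and only the arrays compared (adjusted p = 0.0871, with 2.63e-08 to 0.0871 over all alternatives). Tspan8 gave 2.36 ± 0.40 (adjusted p = 0.00019) and Muc1, a mucin, 1.39 ± 0.29 (adjusted p = 0.00242). Krt5, a keratin of basal cells, read 1947, 2765 and 1554 on the EOM arrays and 110.1, 37.4 and 839.5 on the leg arrays, with leg array 3 far above the other leg arrays, and its 3.27 ± 0.86 (adjusted p = 0.0196) was lost without EOM array 1 or 2, or leg array 1 or 2 (adjusted p 0.0622 to 0.136, with 0.000648 to 0.362 over all alternatives). Lgals7, galectin 7, gave 2.33 ± 0.54 (adjusted p = 0.00644), lost without leg array 1 or 2 (adjusted p 0.0583 to 0.0643, with 0.000102 to 0.227 over all alternatives). Krt18 missed the threshold with its brighter probe set, at 1.44 ± 0.45 (adjusted p = 0.0596), and passed with the other, at 2.92.

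Not every gland marker followed. Klk1, named for a glandular kallikrein, was lower in EOM and read 3185, 3687 and 4367 on the EOM arrays and 15646, 16041 and 12593 on the leg arrays, with -1.98 ± 0.29 (adjusted p = 2.7e-05). The array's design marks this probe set as having too few probes that are unique to it. A second one, marked as shared by a gene family, was called too, at -1.72. Pip, Lcn2, Cst3 and Jup gave -1.29, 0.27, 0.15 and -0.07 without a call. The summed intensity of the 19 genes was 30937 to 48310 on the EOM arrays and 27971 to 35212 on the leg arrays, with Klk1 in it. No tested member was at the floor on all 6 arrays. With both arrays numbered 3 left out, 10 members were higher and 1 lower. The part of epithelial RNA in the lower values of fibre genes was not tested.

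Of 17 tested genes of Schwann cells and myelin 5 were higher in EOM, beside 3.5% over all genes. None was lower, 12 were not called and the median was 0.36. Sox10, which directs the formation of glia from the neural crest, read 2103, 2449.5 and 976 on the EOM arrays and 35.1, 62.4 and 84.9 on the leg arrays. All leg arrays lay at the floor, so the 4.10 ± 0.42 (adjusted p = 1.01e-07) is a lower bound of 17.1-fold. Mal, a myelin proteolipid, gave 1.28 ± 0.26 (adjusted p = 0.00164). Prx, periaxin, which stabilises myelin, gave 1.14 ± 0.26 (adjusted p = 0.00531), lost without leg array 1 (adjusted p = 0.0511, with 0.000636 to 0.0715 over all alternatives). Mbp, myelin basic protein, read 5399.9, 4144 and 9975 on the EOM arrays and 1088, 1835 and 3006 on the leg arrays, and its 1.74 ± 0.49 (adjusted p = 0.0324) was lost without EOM array 1 or 3, or leg array 1 or 2 (adjusted p 0.0764 to 0.235, with 0.00304 to 0.359 over all alternatives). S100b, a calcium-binding protein of glia, read 2293, 1425 and 3382 on the EOM arrays and 90.5, 213 and 1192 on the leg arrays, with leg array 3 near the EOM range, and its 2.92 ± 0.88 (adjusted p = 0.0485) was lost without EOM array 1, 2 or 3, or leg array 1 or 2 (adjusted p 0.0779 to 0.344, with 0.00326 to 0.573 over all alternatives). Pmp22, Mag, Gjb1 and Egr2, which also mark myelinating cells, gave -0.36, 0.36, 0.11 and 0.28 without a call. EOM array 3 was the lowest EOM array for Sox10 but the highest for Mbp and S100b. Which cells gave the Sox10 signal was not tested. The summed intensity of the list was 63978 to 75967 in EOM and 61320 to 64024 in leg. In the arrays numbered 1 and 2, 4 members were called. Of 16 genes of axons and neurons 2 were called, beside 5.3% over all genes. Nefm, a neurofilament, was higher with 1.65 ± 0.46 (adjusted p = 0.0287), lost without EOM array 1, 2 or 3, or leg array 1 or 3 (adjusted p 0.069 to 0.122, with 0.00864 to 0.249 over all alternatives), and Mapt, the protein tau, with 0.91 ± 0.22 (adjusted p = 0.00993), lost without EOM array 2, or leg array 3 (adjusted p 0.0583 to 0.108, with 0.00256 to 0.191 over all alternatives). None of these 16 was called by limma without both arrays numbered 3.

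Lists of other cell types had at most 2 calls each, beside 5.3% over all genes. Mia, a secreted protein first found in melanoma and made by cartilage and pigment cells, read 3389, 3373 and 1742 on the EOM arrays and 173, 78.5 and 164 on the leg arrays, with 4.26 ± 0.35 (adjusted p = 1.14e-09), at least 19.1-fold. Kit, the one other tested gene of the pigment cell list, gave 0.22. Among 15 genes of eye tissues Pax6 alone was called, and the lens and photoreceptor genes Cryaa, Mip, Sag and Rom1 gave 0.17, -0.07, 0.48 and 0.21. Cnn1, calponin of smooth muscle, was higher with 2.31 ± 0.48 (adjusted p = 0.00214), lost with the replicate block and only the arrays compared (adjusted p = 0.0673, with 8.17e-05 to 0.12 over all alternatives), and the 13 others of endothelium and smooth muscle were not called. Of 17 adipocyte genes Scd2, a fatty acid desaturase, was higher with 1.10 ± 0.29 (adjusted p = 0.0186), lost without EOM array 2 or 3, or leg array 1 or 2 (adjusted p 0.0665 to 0.0929, with 0.00157 to 0.216 over all alternatives), and Acly, which makes acetyl-CoA for lipids, with 0.95 ± 0.26 (adjusted p = 0.0298), lost without EOM array 1, 2 or 3, or leg array 1 or 3 (adjusted p 0.0539 to 0.129, with 0.0011 to 0.298 over all alternatives). A second probe set of each was called too, at 1.10 for Scd2 and 1.58 for Acly. Their other probe sets were not called, with 0.29 to 0.92 for Scd2 and 0.22 for Acly. The adipocyte markers Fabp4, Lpl and Lep gave -0.25, -0.05 and -0.09. None of 26 leukocyte genes was called by limma and 0 had an unadjusted p under 0.05. Lyz2, a lysozyme of macrophages, and S100a9 of neutrophils differed most, with 0.58 and -0.67. Of 11 erythroid genes Alas2, the first enzyme of haem synthesis in red cells, was higher with 1.05 ± 0.31 (adjusted p = 0.0384), lost without EOM array 1, 2 or 3, or leg array 1 or 2 (adjusted p 0.0533 to 0.305, with 0.0023 to 0.555 over all alternatives). Col2a1, the collagen of cartilage, read 1300.3, 1642 and 1884 on the EOM arrays and 2898, 2489 and 9705 on the leg arrays. Leg array 3 was far above the rest, and the -1.37 ± 0.41 (adjusted p = 0.0487) was lost without EOM array 1, 2 or 3, or leg array 3 (adjusted p 0.0665 to 0.456, with 0.024 to 0.456 over all alternatives). The same array was the highest for the epidermal keratins Krt1, with 139.9, 176 and 109 on the EOM arrays and 160.3, 204 and 1356 on the leg arrays, and Krt10, with 398, 393 and 425 on the EOM arrays and 396, 298 and 2013 on the leg arrays, neither of which was called.

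**Figure D2:**
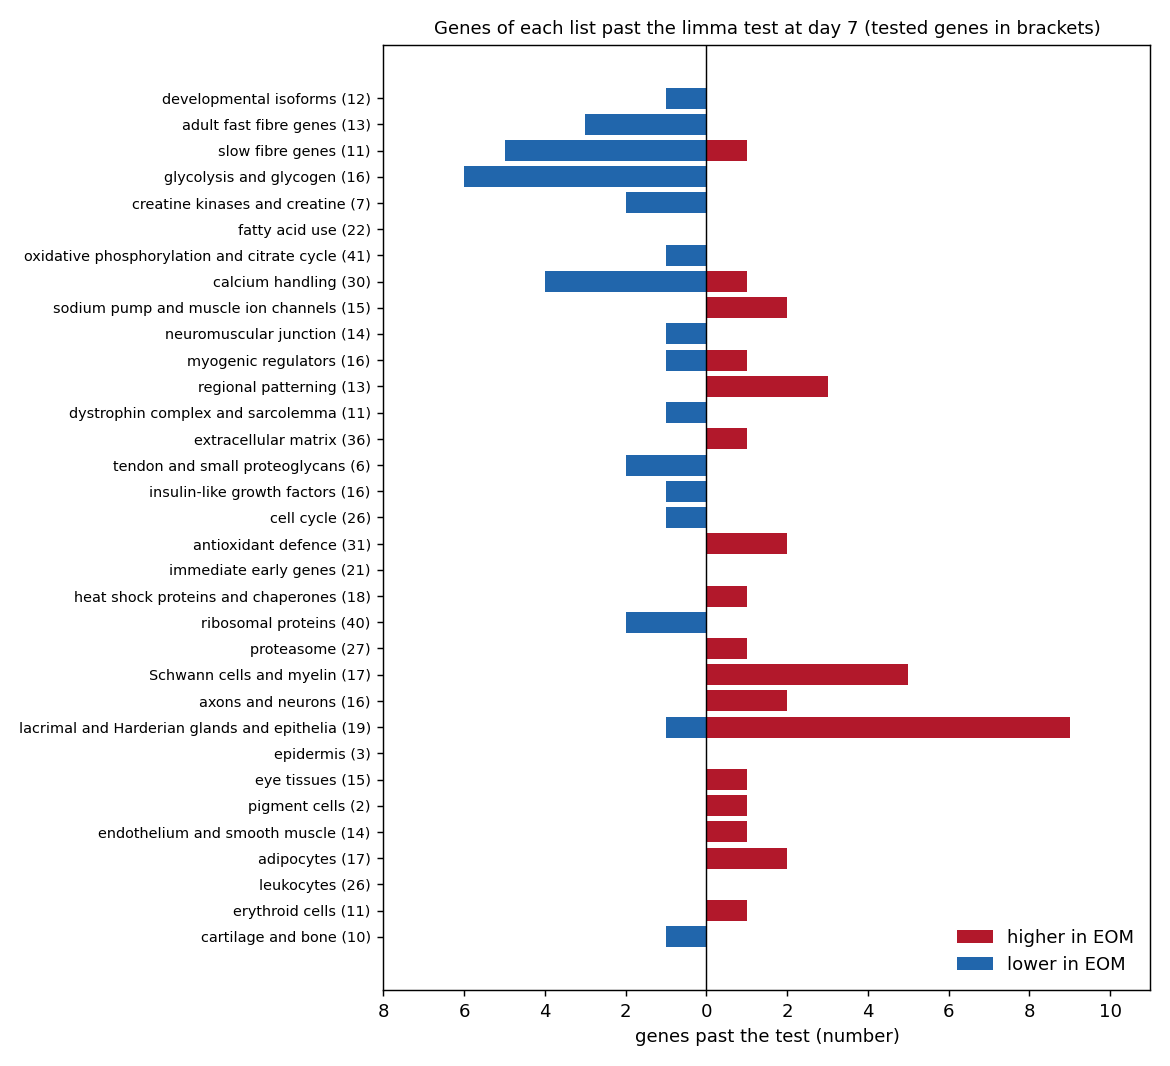
Number of genes of each list that passed the limma test at day 7, higher in EOM to the right in red and lower to the left in blue, with the number tested in brackets. The lacrimal and Harderian glands and epithelia have 9 of 19 higher, glycolysis and glycogen 6 of 16 lower and slow fibre genes 5 of 11 lower. Over all genes 3.5% were higher and 1.8% lower.

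Without both arrays numbered 3, the counts were the same for the fast fibre, calcium, tendon, extracellular matrix, antioxidant, ribosomal and neuromuscular junction lists. No gene was called in that fit for the developmental isoform, creatine, oxidative phosphorylation, myogenic regulator, cell cycle, heat shock, proteasome, axon, adipocyte, and cartilage and bone lists, each of which had 1 or 2 calls with all 6 arrays.

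The ribosomal, proteasome, heat shock and cell cycle lists had 1 or 2 calls each, near the 5.3% called over all genes. Of 40 ribosomal protein genes 2 were lower. Rpl3l, a form of ribosomal protein L3 found in striated muscle, read 694, 671 and 564 on the EOM arrays and 3237, 2299 and 1985 on the leg arrays, with -1.94 ± 0.35 (adjusted p = 0.000527). Rplp0 read 1309, 1257 and 6914 on the EOM arrays and 10056, 9276 and 7715 on the leg arrays. EOM array 3 was near the leg range and the other 2 EOM arrays far below it, and the -1.99 ± 0.58 (adjusted p = 0.0367) was lost without EOM array 1 or 2, or leg array 1, 2 or 3 (adjusted p 0.0702 to 0.268, with 0.00101 to 0.501 over all alternatives). Of 27 proteasome genes Psmd11 was higher with 0.64 ± 0.17 (adjusted p = 0.0213), lost without EOM array 1 or 2, or leg array 1 (adjusted p 0.0516 to 0.223, with 0.00291 to 0.585 over all alternatives). Of 18 heat shock proteins and chaperones Hsph1 was higher with 0.75 ± 0.22 (adjusted p = 0.0399), lost without EOM array 1, 2 or 3, or leg array 1, 2 or 3 (adjusted p 0.0745 to 0.168, with 0.00825 to 0.226 over all alternatives). A second Hsph1 probe set gave 0.14 without a call (adjusted p = 0.971). Ccng1, cyclin G1, was the 1 called gene of 26 of the cell cycle, lower with -0.81 ± 0.19 (adjusted p = 0.00769), and Pcna, Cdk1 and Top2a gave 0.25, -0.12 and 0.25. None of 21 immediate early genes was called by limma and 2 had an unadjusted p under 0.05. Dusp1, a phosphatase, and Nr4a3, a nuclear receptor, had the largest differences of that list. Dusp1 gave 0.70 ± 0.34 (adjusted p = 0.365), and Nr4a3 read 117, 453 and 491 on the EOM arrays and 527, 797 and 494 on the leg arrays, all leg arrays above the EOM arrays, with an adjusted p of 0.6.

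Of 31 tested genes of antioxidant defence 2 were higher, none was lower and the median was 0.21. That count is near the 5.3% called over all genes. Mgst1, a microsomal glutathione transferase, read 14920, 15894 and 9461 on the EOM arrays and 401, 989.8 and 1802 on the leg arrays, with 3.87 ± 0.61 (adjusted p = 8.49e-05). Gsta4, a cytosolic one, gave 1.43 ± 0.22 (adjusted p = 6.25e-05), and its second probe set gave 1.44 without a call (adjusted p = 0.072). Other genes among the 15 largest that were higher are on no list. Adh1c, an alcohol dehydrogenase, read 7509, 6133 and 5297 on the EOM arrays and 737, 636 and 482 on the leg arrays, with 3.36 ± 0.62 (adjusted p = 0.000558). Ptgr1, a prostaglandin reductase, read 1853, 1970.3 and 704 on the EOM arrays and 65.2, 111 and 229 on the leg arrays, with 3.33 ± 0.65 (adjusted p = 0.00122), lost with the replicate block and only the arrays compared (adjusted p = 0.07, with 3.06e-05 to 0.07 over all alternatives). Cxcl14, a chemokine, and Mfsd6, a membrane transporter, gave 2.96 ± 0.43 (adjusted p = 2.54e-05) and 2.98 ± 0.47 (adjusted p = 7.69e-05), each with 2 leg arrays at the floor, so that both are lower bounds. A second Cxcl14 probe set gave 0.86 without a call. Lower among the genes on no list were Ube2g2, a ubiquitin-conjugating enzyme, Cd55, which limits complement on cell surfaces, and Slc5a2, a sodium and glucose transporter. Ube2g2 read 357, 326 and 2004 on the EOM arrays and 3642, 2920.4 and 3420.5 on the leg arrays, and its -2.43 ± 0.66 (adjusted p = 0.0245) was lost without EOM array 1 or 2, or leg array 1, 2 or 3 (adjusted p 0.0601 to 0.186, with 0.000815 to 0.363 over all alternatives). Cd55 gave -2.20 ± 0.64 (adjusted p = 0.0399), lost without EOM array 1 or 2, or leg array 1, 2 or 3 (adjusted p 0.0943 to 0.234, with 0.00443 to 0.359 over all alternatives), and its second probe set gave 1.02 in the other direction without a call. Slc5a2 read 53.2, 76.3 and 52.5 on the EOM arrays and 148, 764 and 526 on the leg arrays. All EOM arrays lay at the floor, so the -1.96 ± 0.51 (adjusted p = 0.0186) is a bound, and it was lost without EOM array 1 or 2, or leg array 2 or 3 (adjusted p 0.0622 to 0.178, with 0.00118 to 0.343 over all alternatives).

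Most of the genes called at day 7 had a difference of the same sign at birth. Of the 206 called genes 197 had the same sign at day 0, and 117 of them were also called there. No share over all tested genes was set beside these counts, so they do not show an excess over other genes. The difference itself was tested between the ages in the same fit, and 5 of 6672 probe sets (0.0749%) had another difference at day 7 than at day 0, 1 a more positive one (0.015%) and 4 a more negative one (0.06%), while 265 had an unadjusted p under 0.05. With the replicate number as a block there were 13. On simulated data the fit recovered 15.6% of 2-fold changes between these ages, so few calls do not mean a constant difference. Leaving out leg array 3 of day 0 or of day 7 gave 8, and leaving out EOM array 3 of day 0 gave 9. Changes from age to age within one muscle were not tested and are given as means. Mybpc2 had the largest such change. Its group means on the log2 scale were 7.25 in EOM and 8.91 in leg at day 0 and 7.59 and 12.53 at day 7. The leg mean was thus higher at day 7 and the EOM mean near its value at birth, and the difference of differences was -3.28 ± 0.47 (adjusted p = 0.000721). With only the arrays compared in the fit the adjusted p was 0.0746, and over all alternatives it ran from 3.36e-06 to 0.0871. Pvalb went from 9.49 and 8.81 to 10.43 and 12.49, with a change of -2.74 ± 0.47 (adjusted p = 0.00397), not called without both day 7 arrays numbered 1 or 2 (adjusted p = 0.0666 and 0.0555, with 0.000301 to 0.0666 over all alternatives). In that gene the sign turned, from a difference of 0.67 that was not called (adjusted p = 0.324) to the one given above. Alx1 was at 11.12 in EOM at day 0 and 8.38 at day 7, with the leg at the floor at both ages, and its change of -2.75 ± 0.53 (adjusted p = 0.0171) was lost without EOM day 0 array 2, EOM day 7 array 1, leg day 0 array 1 or 2, or leg day 7 array 1 (adjusted p 0.0515 to 0.0655), with 5.31e-06 to 0.203 over all alternatives. The other 2 probe sets were chosen for mention after their values were seen. One of 3 Fgfr2 probe sets, for a fibroblast growth factor receptor, differed by 3.07 at day 0 and 0.13 at day 7, a change of -2.94 ± 0.45 (adjusted p = 0.00129). One of 2 for Ckmt2, the mitochondrial creatine kinase of muscle, differed by -1.92 and then -0.43, a change of 1.49 ± 0.24 (adjusted p = 0.00141), which was not called with only the arrays compared in the fit (0.0776, or 0.0871 with the block).

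**Figure D3:**
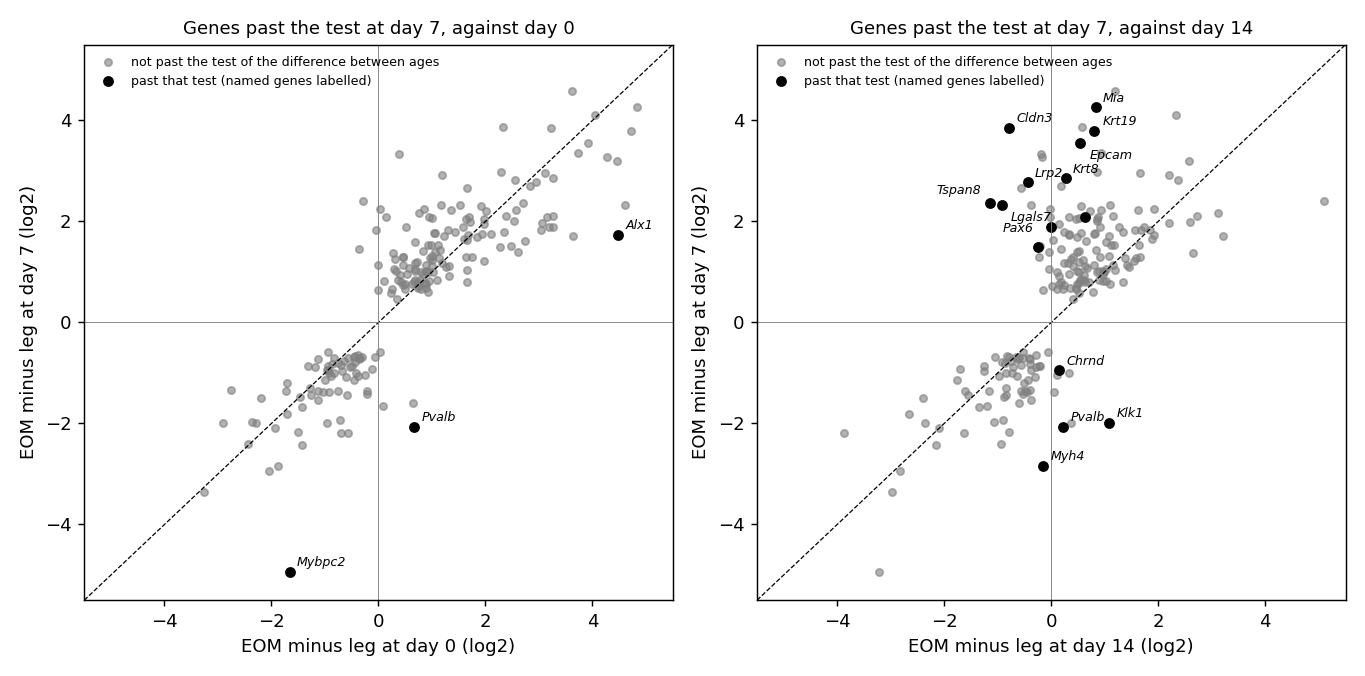
Difference between the muscles (EOM minus leg, log2) at day 7 against that at day 0 (left) and day 14 (right) for the 206 genes called at day 7, with the line of equal difference dashed. Black points passed the test of the difference between the ages, and those named in the text are labelled. The points of Mybpc2, Pvalb and Alx1 lie off the line at day 0, and more genes leave the line at day 14, where Cldn3, Tspan8, Lgals7 and Epcam lie near or left of 0 on the horizontal axis.

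At day 14, 183 of the 206 genes had the same sign as at day 7 and 69 were also called. These counts, too, have no share over all tested genes beside them. In the test of the difference 32 probe sets (0.48%) differed between days 7 and 14, 22 with a more positive EOM minus leg value at day 7 (0.33%) and 10 with a more negative one (0.15%), and 487 had an unadjusted p under 0.05. Leaving out 1 day 7 array gave 13 for EOM array 2, 19 for EOM array 1, 18 for leg array 1 and 21 for leg array 2. Leaving out 1 day 14 array gave 19 for EOM array 1, 21 for leg array 2 and 53 for EOM array 3. Without both day 7 arrays numbered 1, 2 or 3 there were 11, 7 and 41. In genes (read by their brightest probe set) 19 of 3889 passed (0.489%). This test and the one against day 0 share the day 7 arrays.

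Of the 3 fast fibre genes called at day 7, Myh4 and Pvalb had another difference at day 14 by the test of the change and Mybpc2 did not. Myh4 went from 10.75 in EOM and 13.59 in leg at day 7 to 14.34 and 14.49 at day 14, and the change in the difference was -2.69 ± 0.53 (adjusted p = 0.00912). It was not called without both day 7 arrays numbered 1 or 2 (0.0518 and 0.0543, with 0.000339 to 0.0543 over all alternatives). Pvalb went from 10.43 and 12.49 to 14.33 and 14.10, a change of -2.29 ± 0.47 (adjusted p = 0.0125), lost without EOM day 14 array 1, EOM day 7 array 2, or leg day 14 array 2 (adjusted p 0.0509 to 0.0615), with 0.00125 to 0.121 over all alternatives. Mybpc2 had means of 11.05 in EOM and 14.27 in leg at day 14, and its difference at day 14 was -3.22. The change of -1.72 ± 0.47 (adjusted p = 0.122) did not pass. Myh13 went from 8.16 in EOM at day 0 through 11.25 at day 7 to 14.24 at day 14, and the leg stayed at 8.45, 8.85 and 9.14. Neither change in its difference passed, with 2.70 ± 0.85 (adjusted p = 0.489) and -2.70 ± 0.85 (adjusted p = 0.199). Chrnd had means of 10.86 and 10.80 in EOM and of 11.81 and 10.65 in leg at days 7 and 14. Its change of -1.10 ± 0.26 (adjusted p = 0.0383) was lost without EOM day 14 array 1 or 2, EOM day 7 array 1, 2 or 3, leg day 14 array 1 or 3, or leg day 7 array 1, 2 or 3 (adjusted p 0.0563 to 0.14), with 0.0028 to 0.256 over all alternatives. Klk1 went the other way in each muscle, from 11.86 to 13.69 in EOM and from 13.84 to 12.61 in leg, with -3.07 ± 0.41 (adjusted p = 0.000189), and this call held with any one array left out.

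Of the 9 gland and epithelial genes called higher at day 7, 6 passed the test of the change to day 14, as did Lrp2 and Mia, which are not on that list. Ctse, Krt5 and Muc1 did not pass, and the change of Ctse was 3.38 ± 1.25 (adjusted p = 0.371). Cldn3 went from 11.59 in EOM to 8.15, with leg at 7.74 and 8.94, and Mia from 11.40 to 7.56, with leg at 7.15 and 6.73. The changes in their differences were 4.64 ± 0.80 (adjusted p = 0.00258) and 3.43 ± 0.49 (adjusted p = 0.000318), and both calls held with any one array left out. Cldn3 was not called without both day 7 arrays numbered 2 (0.0543, with 0.000397 to 0.0543 over all alternatives). Tspan8 gave 3.50 ± 0.56 (adjusted p = 0.00174), not called with only the arrays compared (0.0627, with 2.93e-05 to 0.0719 over all alternatives), and Lrp2, a large endocytic receptor of absorptive epithelia, gave 3.22 ± 0.64 (adjusted p = 0.0109), lost without EOM day 7 array 2 (adjusted p = 0.0632), with 0.000673 to 0.0993 over all alternatives. At day 7 Lrp2 had read 1657, 2423 and 763 on the EOM arrays and 297, 294 and 108 on the leg arrays, with 2.78 ± 0.46 (adjusted p = 0.000128), while its 2 other probe sets were not called, at 1.30 (adjusted p = 0.168) and 0.74 (adjusted p = 0.454). That day 7 call of Lrp2 was lost with only the arrays compared (adjusted p = 0.0534, with 3.07e-06 to 0.0534 over all alternatives). Krt19, Epcam, Krt8 and Lgals7 gave 3.00 ± 0.68 (adjusted p = 0.0344), 3.02 ± 0.70 (adjusted p = 0.0383), 2.59 ± 0.54 (adjusted p = 0.0142) and 3.25 ± 0.76 (adjusted p = 0.0394). Each of these last 4 calls was lost when one of several single arrays was left out, with the highest adjusted p over the alternatives between 0.242 for Krt8 and 0.417 for Krt19. Krt19 was lost without EOM day 14 array 1 or 2, EOM day 7 array 1 or 2, leg day 14 array 1, 2 or 3, or leg day 7 array 1 or 2 (adjusted p 0.0678 to 0.156), Epcam without EOM day 14 array 1, 2 or 3, EOM day 7 array 1 or 2, leg day 14 array 2 or 3, or leg day 7 array 1, 2 or 3 (adjusted p 0.0552 to 0.163), Krt8 without EOM day 14 array 2, EOM day 7 array 1 or 2, or leg day 7 array 1 or 2 (adjusted p 0.0581 to 0.085) and Lgals7 without EOM day 14 array 1 or 2, EOM day 7 array 1 or 2, leg day 14 array 1 or 3, or leg day 7 array 1 or 2 (adjusted p 0.0779 to 0.171). Pax6, at the floor in both muscles at day 14, gave 1.90 ± 0.44 (adjusted p = 0.041), lost without EOM day 14 array 1, 2 or 3, EOM day 7 array 1 or 2, leg day 14 array 1, 2 or 3, or leg day 7 array 1, 2 or 3 (adjusted p 0.0547 to 0.178), with 0.000901 to 0.346 over all alternatives.

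**Figure D4:**
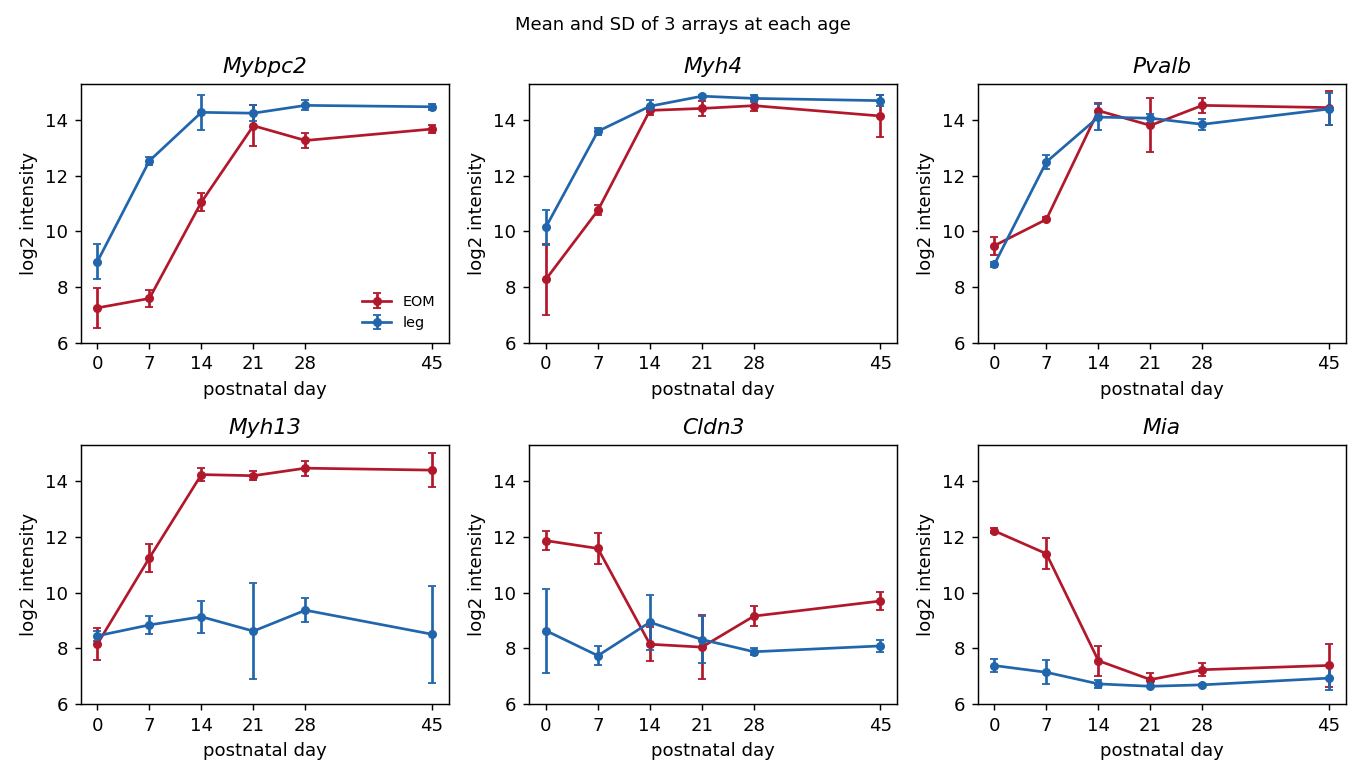
Mean log2 intensity of 6 genes at each of the 6 ages in EOM (red) and leg (blue), with bars for the SD of 3 arrays. For Mybpc2, Myh4 and Pvalb the leg mean is far higher at day 7 than at day 0 and the EOM mean far higher at day 14 than at day 7. Myh13 is higher at later ages in EOM alone, and Cldn3 and Mia are lower in EOM at day 14 than at day 7.

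The genes Ak4 and Rnase1 were not called at day 7 and were past the test of the change to day 14. Ak4, a mitochondrial adenylate kinase, read 81.6, 82.9 and 81.5 on the EOM arrays and 394, 72.8 and 292 on the leg arrays at day 7, with all EOM arrays at the floor, and its group means at day 14 were 9.02 in EOM and 6.64, the floor, in leg. Without leg array 2 its day 7 difference was called, at -1.76 (adjusted p = 0.0233). The change was -3.55 ± 0.64 (adjusted p = 0.00362), not called without both day 7 arrays numbered 1 (0.0518, with 0.00064 to 0.0562 over all alternatives). Rnase1, a secreted ribonuclease, read 206, 202 and 154 on the EOM arrays and 214, 429 and 362 on the leg arrays at day 7 and had means of 8.99 in EOM and 7.12 in leg at day 14. Its change of -2.66 ± 0.60 (adjusted p = 0.0291) was lost without EOM day 14 array 1, EOM day 7 array 1, 2 or 3, leg day 14 array 1 or 2, or leg day 7 array 2 or 3 (adjusted p 0.0572 to 0.144), with 0.00895 to 0.206 over all alternatives.

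At day 45, the oldest age of the series, 176 of the 206 genes kept the sign they had at day 7, and 81 were also called there. Here as well, no share over all tested genes was set beside the counts. The difference between days 7 and 45 was not tested. Dhrs7c and Cacng1 gave -2.15 and -2.07 at day 45, against -3.36 and -2.10 at day 7, and Cyp1b1 gave 1.93 against 3.20. Myh8, which did not pass at day 7, gave 6.08 at day 45 (adjusted p = 9.01e-16), since its mean was 13.23 in EOM and 7.15 in leg.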

How the data were processed

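The deposited table holds 1 intensity for each of 8799 probe sets and each array on a linear scale, and the arrays had been scaled by the authors to a common target, since the deposited intensity values have trimmed means of 1498.7 to 1500.7. The program that made 1 value from the probes of a set was not given in the sources used here. Group, age and replicate number come from the labels. The members and gene lists were chosen with earlier results of these data known.

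Values were floored at 100 and turned to log2. Control probe sets (59) took no part. Tested were those above 320.4, the 40th percentile of all values, on at least 3 of the 36 arrays. The fit was made by limma 3.58.1 under R 4.3.3 on the means of 12 groups, and used all 36 arrays and a variance prior that follows intensity (24 residual and 5.84 prior degrees of freedom). Adjustment was by Benjamini-Hochberg over all 6672 tested probe sets, with a threshold of 0.05. A difference with any array of the dimmer muscle at the floor is a lower bound or close to one. The number of arrays limits the precision.

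Of the probe sets, 7006 have 1 symbol in the platform annotation, which can be old, 308 have several and 1426 none, and 6994 matched the RefSeq gene table (GRCr8) by gene identifier. A gene is read by its probe set of highest mean. Named are the 15 largest differences each way at day 7 without overlap, the 6 largest each way for each change between ages, up to 6 called members of each list or 2 where none passed, and 15 followed genes. Uncalled members named as values beside them, and Muc1 and Krt18, were picked after their values were seen. Tests of the fit on simulated data with 3 arrays a group recovered 42.7% of 2-fold and 80.9% of 4-fold changes between muscles at day 7, and 58.5% of 4-fold changes between days 7 and 0 and between days 7 and 14. Of 2-fold changes between ages they recovered 15.6% against day 0 and 13.5% against day 14. The simulated noise was drawn separately for each array.

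Arrays with the same number correlated in their deviations from the group means at 0.168, 0.131 and 0.295, and arrays of different numbers at -0.196 to 0.0586. Deviations cancel out within a group, so these correlations depend on each other and cannot settle whether the numbers pair the samples. The labels do not state a pairing, and the fit used no replicate block. With a block and only the arrays compared, 190 probe sets were called at day 7, among them 159 of the 330. Alternatives covered floor, filter, scaling, the arrays in the fit, block, variance prior, array weights, the top of the scale and leaving out arrays.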

Additional observations from a re-analysis of the deposited data

Results flagged for a closer look

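In 18 cases a difference between EOM and leg at day 7 was another one at day 0 or day 14, by the test of the change itself. Against day 0 these were Mybpc2 with -3.28, Alx1 with -2.75 and Pvalb with -2.74 on the log2 scale. Against day 14 the differences of Ak4 (-3.55), Klk1 (-3.07), Myh4 (-2.69), Rnase1 (-2.66), Pvalb (-2.29) and Chrnd (-1.10) were more negative at day 7. Those of Cldn3 (4.64), Tspan8 (3.50), Mia (3.43), Lgals7 (3.25), Lrp2 (3.22), Epcam (3.02), Krt19 (3.00), Krt8 (2.59) and Pax6 (1.90) were more positive. For Pax6 and Alx1 the leg lay at the floor at both ages, so the change is that of EOM alone, and for Ak4 the EOM arrays lay at the floor at day 7.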

How the results depend on the processing

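The count of 330 probe sets stayed within 1.5 times under other floors, filters, scalings and priors. With only the arrays compared in the fit it was 227, among them 192 of the 330, and 24 named genes lost their day 7 call. It was 190 with a replicate block and only the arrays compared, 587 with array weights and 191 to 294 with 1 array left out. Without both day 7 arrays of a number, chosen after seeing the data, it was 133, 125 and 234. A replicate block over all arrays gave 382, kept 329 of the 330, and changed no call of a named gene at day 7. With the block and only the arrays compared, 22 named genes lost their day 7 call (adjusted p 0.0529 to 0.224), among them Krt8, Pax6, Cnn1, Ptgr1 and Alx1. The count of 5 for the change from day 0 became 18 with a floor at 200, 13 without a filter, 11 with quantile normalization, 13 with the replicate block, 2 with the block and only the arrays compared, 32 with array weights, 4 to 9 with 1 array left out and 3 without both day 7 arrays numbered 1. The count of 32 for the change from day 14 became 52 with a floor at 200, 21 with only the arrays compared, 47 with the replicate block, 98 with array weights, 13 to 53 with 1 array left out, and 11 and 7 without both day 7 arrays numbered 1 and 2. Of 73 named genes called at day 7, 40 kept the call without any 1 of the 6 arrays and 33 lost it without at least 1. No named gene changed sign in a call. Scaling to the same median gave 175 higher and 122 lower, and quantile normalization 187 and 133. The causes were not tested. With 3 arrays a group, 2-fold changes were often missed on simulated data.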

Other observations

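Some genes of lipid synthesis that are on no list were called higher in EOM at day 7. These, and the other genes of this section, were picked after their values were seen, so their going together is no test. Lipid synthesis genes on the adipocyte list were mostly not called. Fasn, Acaca, Me1, Gpam and Dgat1 gave -0.01, -0.84, 0.63, -0.14 and 0.58, and Scd missed the threshold at 1.65 ± 0.51 (adjusted p = 0.056), beside Scd2 and Acly, which were called. The median of the 17 genes of that list was -0.05. Srebf1, a transcription factor that drives lipid synthesis, read 1345, 1266 and 986 on the EOM arrays and 442, 383 and 194 on the leg arrays, with 1.89 ± 0.35 (adjusted p = 0.000609). Slc25a1, which exports citrate from mitochondria for that synthesis, gave 2.07 ± 0.33 (adjusted p = 0.000103). Tkt and Taldo1 of the pentose phosphate pathway gave 1.20 ± 0.28 (adjusted p = 0.00845) and 1.11 ± 0.26 (adjusted p = 0.00805), and Idh1, which like that pathway yields NADPH, gave 1.01 ± 0.26 (adjusted p = 0.015). Elovl5, which lengthens fatty acids, gave 1.30 ± 0.36 (adjusted p = 0.0307), and Plin2, which coats lipid droplets, 2.09 ± 0.51 (adjusted p = 0.0108). Srebf1 and Slc25a1 kept their calls with any one array left out. Tkt and Idh1 were lost without leg array 1 or EOM array 2, Taldo1 without leg array 2 or EOM array 1, Plin2 without EOM array 2, and Elovl5 without any array but EOM array 3. Over all alternatives the highest adjusted p was 0.095 for Slc25a1, 0.258 for Tkt, 0.144 for Idh1, 0.16 for Taldo1, 0.136 for Plin2 and 0.354 for Elovl5.

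A few epithelial genes on no list were called higher as well. Spint2, a protease inhibitor of epithelia, read 7377, 7153 and 3011 on the EOM arrays and 1364, 1244 and 909.6 on the leg arrays, with 2.23 ± 0.33 (adjusted p = 2.91e-05). Aqp3, an aquaporin of basal membranes, gave 2.33 ± 0.50 (adjusted p = 0.00295), Itgb4, an integrin of hemidesmosomes, 2.08 ± 0.46 (adjusted p = 0.00405) and Cldn7, a claudin, 2.05 ± 0.61 (adjusted p = 0.0445), the last of which was lost without any array but EOM array 3 (adjusted p up to 0.445 over all alternatives). For Aqp3 and Itgb4 the highest adjusted p over all alternatives was 0.119 and 0.127. Among further genes of muscle that were lower, Ampd1, the AMP deaminase of muscle, read 3069, 2836 and 4003 on the EOM arrays and 8684, 8437 and 8038 on the leg arrays, with -1.36 ± 0.20 (adjusted p = 2.54e-05). Aqp4, an aquaporin of the fast fibre membrane, read 98.6, 151 and 50.3 on the EOM arrays and 446, 308 and 337 on the leg arrays. With 2 EOM arrays at the floor, its -1.64 ± 0.34 (adjusted p = 0.00228) is a bound. The adjusted p of Aqp4 reached 0.14 over all alternatives. Sarcomere genes gave smaller differences, with -0.95 ± 0.21 (adjusted p = 0.00381) for Nexn, -0.88 ± 0.26 (adjusted p = 0.0461) for Actn2 and -0.71 ± 0.19 (adjusted p = 0.0271) for Mybpc1, the slow form of the protein whose fast form led the lower genes. Actn2 was lost without any one of the 6 arrays and Mybpc1 without any but EOM array 1 (adjusted p up to 0.433 and 0.217 over all alternatives), and Nexn kept its call in each of these fits. The adjusted p of Nexn reached 0.118 over all alternatives.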
